A study of Danio rerio with 23 samples.

Results

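The genes described here are the amino acid transporter families SLC1, SLC3, SLC6, SLC7, SLC36, SLC38 and SLC43 in the liver of irradiated zebrafish. They were taken by symbol from the array's probe annotation, without the cystine carrier slc7a11, and each gene was read from its brightest probe set, the one with the highest mean log2 signal over 23 arrays. This gave 77 members of 21125 genes that had a probe set of their own. The members were 12 SLC1, 3 SLC3, 25 SLC6, 17 SLC7, 2 SLC36, 12 SLC38 and 6 SLC43 genes. The name rule is wider than the function, since slc7a6os is named for lying opposite slc7a6 and is not a transporter, and some SLC6 carriers move creatine or monoamines.

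Amino acids cross the hepatocyte membrane through these carriers. SLC7 light chains reach the membrane by pairing with a heavy chain of the SLC3 family and mostly exchange one amino acid for another, whereas sodium-coupled SLC38 carriers bring in alanine, glutamine and histidine, which the liver uses for urea and glucose production. SLC43 carriers pass branched-chain and aromatic amino acids, SLC1 carriers pass glutamate or small neutral amino acids, and many SLC6 carriers pass taurine, GABA, glycine or neutral amino acids. In mammals, a shortage of amino acids raises several of these genes through the transcription factor ATF4, and slc38a9 and slc36a1 take part in sensing amino acids at the lysosome.

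Liver RNA of 6-month-old fish was hybridised to ZebGene ST arrays in 8 groups and 2 batches. The 40 Gy batch held wild-type (WT, normal diet) fish with 2 arrays after irradiation alone (R) and 2 after Oligo-Fucoidan and irradiation (OF + R), and HBx,src fish with 3 R and 4 OF + R arrays. The 10 Gy batch held WT fish with 2 R and 2 OF + R arrays, and HBx,src,p53 fish with 3 R and 5 OF + R arrays. Oligo-Fucoidan, a fucoidan from brown seaweed of low molecular weight, was given by gavage at 300 mg/kg, and R fish received none. The paper's methods do not describe a mock gavage. By the paper's methods Oligo-Fucoidan was given for a month before irradiation and again after it, so OF effects are not those of pretreatment alone. Every group was irradiated, so these arrays hold no measure of irradiation itself. By the paper's methods the transgenic fish were females with diet-induced obesity (DIO). A liver promoter (fabp10a) drove HBx, the X antigen of the hepatitis B virus, together with the oncogene src. The HBx,src,p53 line also carried p53-/+. Genotype, diet and any difference in sex between transgenic and WT fish, whose sex is not stated, cannot be told apart. The sources do not say whether arrays are separate animals, so p-values measure the spread between arrays, which may be technical. That spread was pooled over all 8 groups.

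Array medians were 2.02 to 2.21 in the 40 Gy batch and 2.46 to 2.58 in the 10 Gy batch, and all comparisons were made within a batch. All 15 hepatocyte markers lay at least 3.42 log2 units above the array median on every array. Markers of egg yolk and ovary divided the arrays in a way the labels do not give. The signal of the yolk protein gene vtg2 was 2.42 to 6.36 in the 4 WT arrays of the 40 Gy batch, 3.96 and 3.18 in the WT OF + 10 Gy arrays, and 3.69 and 6.51 in replicates 1 and 4 of HBx,src,p53 OF + 10 Gy, against 13.5 to 13.9 in all other arrays. Each comparison of HBx,src with WT fish therefore also sets high against low vtg2. So, in part, does HBx,src,p53 OF + R against WT OF + R, where both WT arrays had low vtg2. The part of vtg2 status in these comparisons was not tested. Replicates 1 and 4 of HBx,src,p53 OF + 10 Gy had low vtg2 although the paper describes the transgenic fish as female. The sex of the fish behind each array was not checked. The mean signal of 11 ovary markers was 5.84 and 6.03 in the WT 10 Gy arrays and at most 3.12 in any other group. The bulk signal cannot tell fewer cells of a type from less RNA per cell.

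**Figure D1:**
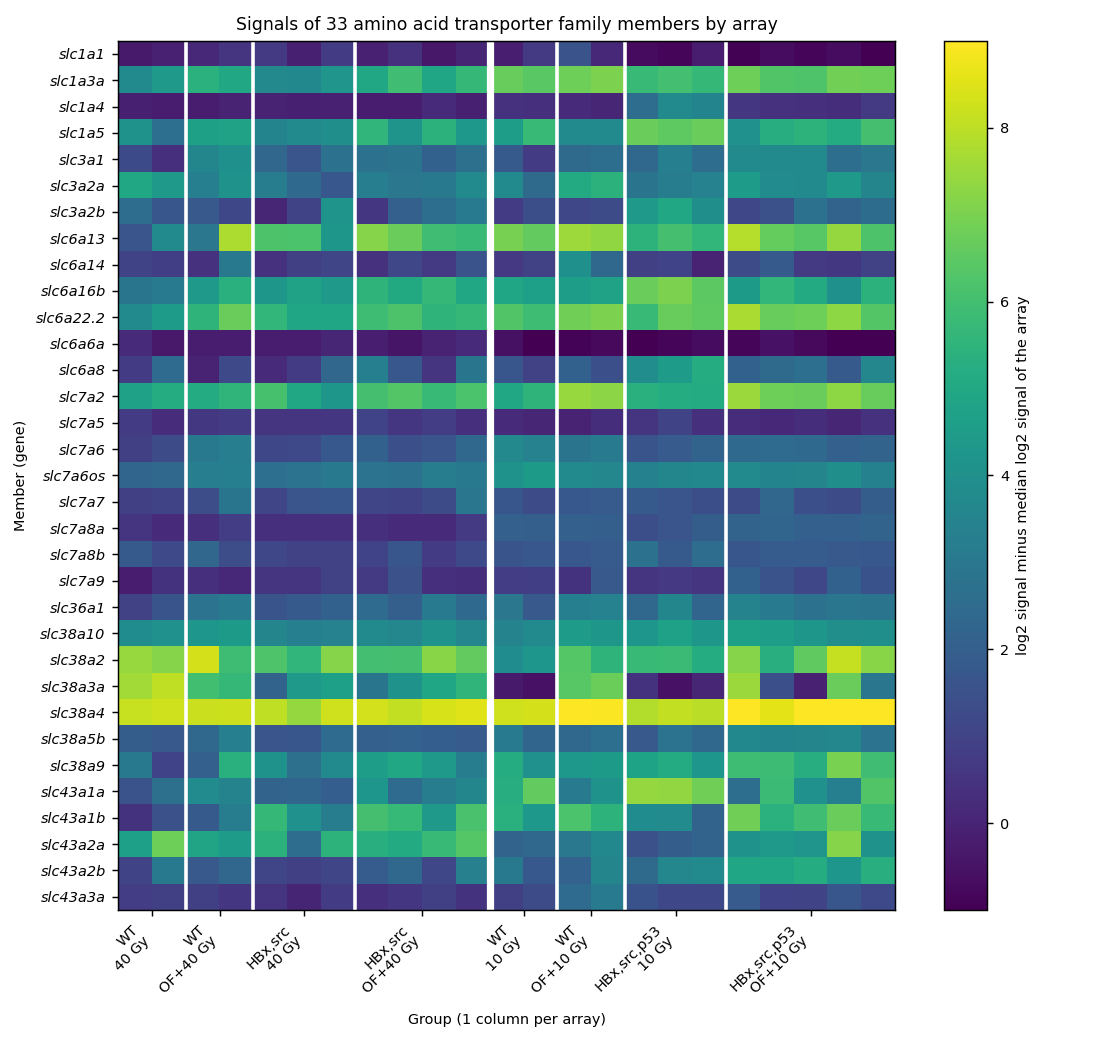
Log2 signal minus the median log2 signal of the array, for the 33 members named in the text (rows, by family) in each of 23 arrays (columns, by group). Colours are to be read along a row, since probe sets differ in brightness, and slc38a3a runs from below the array median to over 7 units above it within the 10 Gy batch.

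Of the 77 members, 35 gave a signal above the array median on every array, 37 on some arrays and 5 on none. All 3 SLC3 and all 6 SLC43 members were above it on every array, against 7 of 12 SLC38, 8 of 17 SLC7, 7 of 25 SLC6, 3 of 12 SLC1 and 1 of 2 SLC36 members. The median is over all probe sets, whereas each member was read from its brightest. The share of all genes above it on every array was not computed, so these counts do not show high expression of a family. The signals of 31 members spanned more than 3 log2 units over the arrays. Among them slc38a2, a widely expressed sodium-coupled carrier of neutral amino acids, gave 6.36 to 10.62, whereas its relative slc38a4, known from the liver, gave 9.55 to 12.45 and spanned less.

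The effect of OF was first read as the number of members called at an adjusted p under 0.05 over all 75212 probe sets. Beside it stands the share of all 21125 genes called in the same comparison. In WT fish with 40 Gy, 5 of 77 members were higher with OF and 0 lower, where 4.05% of all genes were higher and 0.757% lower. In HBx,src fish 1 member was higher and 0 lower, beside 2.1% and 0.222%. In WT fish with 10 Gy, 5 members were higher and 0 lower, beside 2.63% and 6.53%. In HBx,src,p53 fish 5 were higher and 3 lower, beside 2.51% and 3.29%. The median change over all members lay between -0.03 and 0.12 in the 4 comparisons and that over all genes between 0.00 and 0.07.

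**Figure D2:**
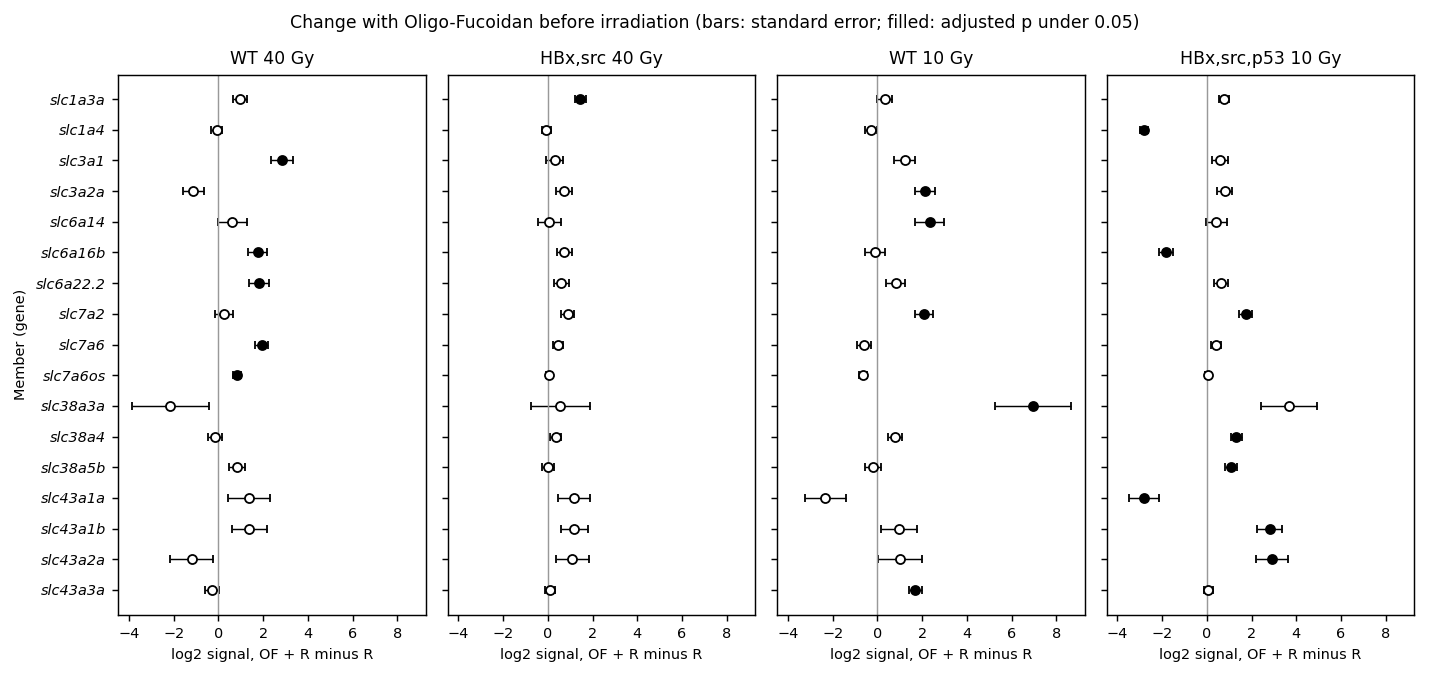
Change in log2 signal (OF + R minus R, horizontal axis) of the 17 members called in any of the 4 OF comparisons, 1 panel for each. Points are the fitted differences, bars their standard errors, and filled points have an adjusted p under 0.05. slc7a2 is the member called in both 10 Gy panels, and slc6a16b is called in opposite directions in WT 40 Gy and HBx,src,p53 10 Gy.

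The 2 transgenic lines were set against WT fish of their batch. HBx,src livers had 1 member higher and 1 lower than WT with 40 Gy, beside 1.28% and 1.4% of all genes, and 1 higher and 1 lower with OF + 40 Gy, beside 0.289% and 1.1%. HBx,src,p53 livers had 5 members higher and 2 lower than WT with 10 Gy, beside 5.33% and 8.4% of genes, and 0 higher and 2 lower with OF + 10 Gy, beside 0.383% and 0.677%. The OF effect itself was also compared between line and WT. For HBx,src against WT, 0 members were called (limma, 9 at an unadjusted p under 0.05), beside 0.0521% of genes higher and 0.17% lower. These shares are at an adjusted p under 0.05, and none was computed at an unadjusted p. For HBx,src,p53 against WT, 0 were higher and 2 lower, beside 5.02% and 1.74%. Comparisons within a batch share arrays, so their results are not independent of each other.

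The heavy chains come first because SLC7 light chains depend on them. slc3a1, which pairs with slc7a9 and is known for cystine uptake in kidney tubule and intestine, gave 3.45 and 2.55 in WT 40 Gy and 5.64 and 6.06 in WT OF + 40 Gy. Both OF arrays were above both R arrays, and the difference was 2.85 (SE 0.48, 7.21-fold, adjusted p 0.0049). Leaving out replicate 2 of WT OF + 40 Gy gave 2.64 with an adjusted p of 0.0647, and a second, dimmer probe set of slc3a1 changed by 0.10 (adjusted p 0.944). One of 5 kidney markers and 1 of 7 intestine markers were also higher in this comparison. The mean signal ran from 2.98 to 3.32 in R arrays and from 3.37 to 3.44 in OF arrays for the kidney list, and from 2.83 to 3.09 and from 2.67 to 3.06 for the intestine list. The part of such cells in the slc3a1 change was not tested. In the other groups slc3a1 lay between 3.31 and 6.31 and no comparison called it. Its change in HBx,src fish was 0.30 (SE 0.36), and the difference from that in WT fish, -2.55, missed the threshold (adjusted p 0.114).

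Zebrafish carry a pair of genes for the other heavy chain, slc3a2a and slc3a2b, which serves most SLC7 light chains. slc3a2a gave 7.18 and 6.61 in WT 40 Gy, 5.38 and 6.19 in WT OF + 40 Gy, 5.35, 4.56 and 3.88 in HBx,src 40 Gy, and 5.37, 5.04, 5.06 and 5.84 in HBx,src OF + 40 Gy. Every HBx,src R array lay below both WT R arrays, a difference of -2.30 (SE 0.42, adjusted p 0.0087), which without replicate 1 of WT 40 Gy was -2.02 (adjusted p 0.0593). HBx,src R and WT R also differ in vitellogenin, with vtg2 at 13.8 to 13.9 and at 2.42 and 2.81, and its part was not tested. In the 10 Gy batch slc3a2a gave 6.25 and 5.03 in WT R, 7.64 and 7.91 in WT OF + R, 5.41, 5.78 and 5.96 in HBx,src,p53 R, and 6.93, 6.36, 6.33, 6.87 and 6.11 in HBx,src,p53 OF + R. With OF the WT value was higher by 2.13 (SE 0.46, 4.38-fold, adjusted p 0.0078), and the call was lost without replicate 2 of WT 10 Gy (1.52, adjusted p 0.145) or replicate 2 of WT OF + 10 Gy (2.00, adjusted p 0.0713). The OF arrays of HBx,src,p53 fish all lay above their R arrays, but the difference of 0.80 did not pass (adjusted p 0.24).

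slc3a2b followed another pattern. It gave 6.95, 7.52 and 6.49 in HBx,src,p53 10 Gy, against 3.25 and 3.94 in WT 10 Gy, 3.67 and 3.76 in WT OF + 10 Gy, and 3.59, 4.03, 5.33, 4.68 and 5.13 in HBx,src,p53 OF + 10 Gy. The 3 HBx,src,p53 R arrays were the highest of the batch, 3.39 above WT R (SE 0.89, 10.5-fold, adjusted p 0.0231). This call was lost without either WT 10 Gy array (3.04 and 3.74, adjusted p 0.193 and 0.0761) and without replicate 1 or 2 of HBx,src,p53 10 Gy (3.41 and 3.12, adjusted p 0.0563 and 0.0756). A second, dimmer probe set of slc3a2b, above the array median on only 4 of 23 arrays, was higher by 1.48 (adjusted p 0.0398). The 5 OF arrays were all below the R arrays, and that difference, -2.43 (SE 0.71), missed the threshold (adjusted p 0.0713). In the 40 Gy batch slc3a2b ranged from 2.21 to 6.31, the widest spread being within HBx,src 40 Gy.

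**Figure D3:**
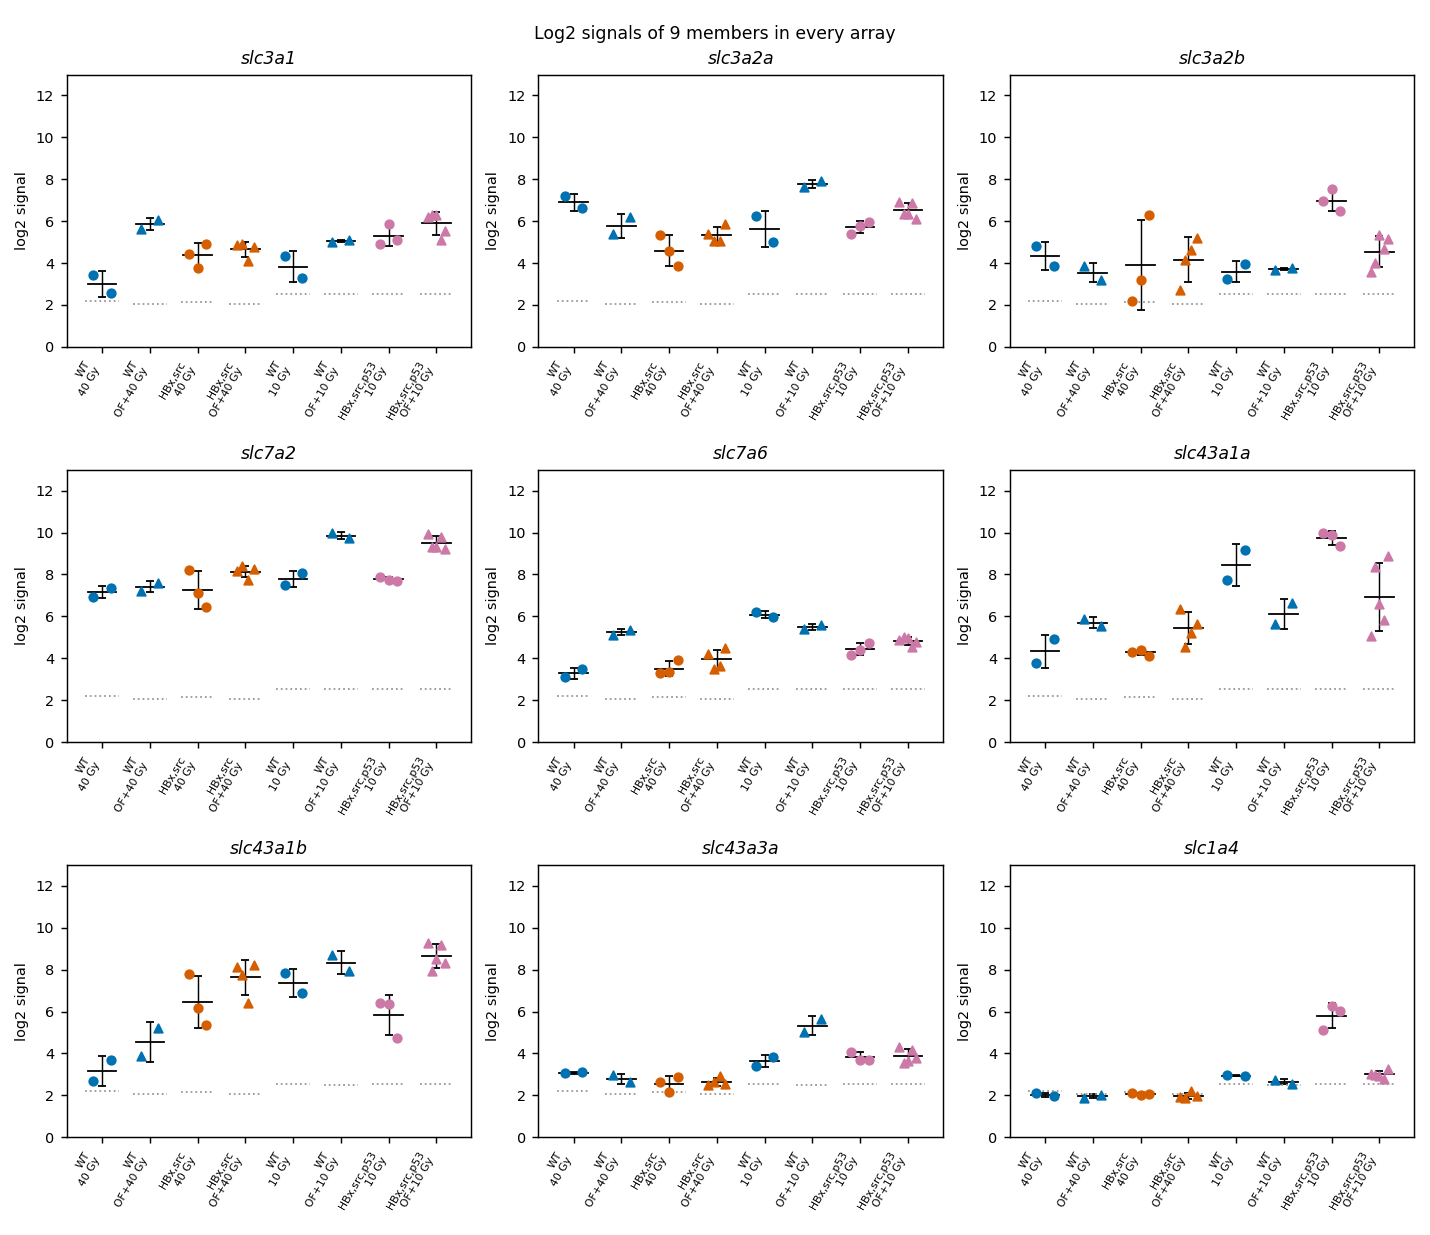
Log2 signals of 9 members (panels) in each array, by group. Circles are R and triangles OF + R arrays, the horizontal line and bar are the mean ± SD, and the dotted line is the mean array median of the group. slc1a4 and slc3a2b are highest in the 3 HBx,src,p53 10 Gy arrays, and slc7a2 is highest in both OF groups of the 10 Gy batch.

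Among the light chains, slc7a6, an exchanger of cationic for neutral amino acids, had the smallest adjusted p of the members in WT 40 Gy fish. It gave 3.11 and 3.47 in WT 40 Gy, 5.13 and 5.33 in WT OF + 40 Gy, 3.29, 3.32 and 3.90 in HBx,src 40 Gy, and 4.20, 3.50, 3.65 and 4.48 in HBx,src OF + 40 Gy. The WT OF arrays were above all other arrays of the batch, 1.94 over WT R (SE 0.29, 3.84-fold, adjusted p 0.0026), and HBx,src OF + R lay 1.27 below WT OF + R (SE 0.25, adjusted p 0.0197). The second call was lost without either WT OF + 40 Gy array (-1.37 and -1.17, adjusted p 0.0852 and 0.15) or replicate 2 of HBx,src OF + 40 Gy (-1.12, adjusted p 0.0541). The OF effect in HBx,src fish, 0.45, differed from that in WT fish by -1.49, short of the threshold (adjusted p 0.14).

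In the 10 Gy batch slc7a6 gave 6.21 and 5.97 in WT R, 5.39 and 5.59 in WT OF + R, 4.17, 4.42 and 4.72 in HBx,src,p53 R, and 4.86, 5.03, 4.99, 4.54 and 4.78 in HBx,src,p53 OF + R. The WT R arrays were the highest, and HBx,src,p53 R fish were 1.66 lower than they were (SE 0.27, adjusted p 0.0004). Here WT R is the group with ovary signal, in which 10 of 11 ovary markers exceeded HBx,src,p53 R, and the part of ovary RNA in this difference was not tested.

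Its neighbour slc7a6os moved the same way with smaller differences. It gave 4.46 and 4.55 in WT 40 Gy and 5.33 and 5.35 in WT OF + 40 Gy, a difference of 0.83 (SE 0.19, adjusted p 0.0276), and between 4.80 and 5.26 in the HBx,src arrays. It gave 6.67 and 7.01 in WT 10 Gy, 6.28 and 6.11 in WT OF + 10 Gy, 5.96, 6.14 and 6.19 in HBx,src,p53 R, and 6.20, 6.05, 6.10, 6.46 and 5.96 in HBx,src,p53 OF + R, and HBx,src,p53 R was lower than WT R by 0.74 on the log2 scale (SE 0.18, adjusted p 0.0122). The first call was lost without replicate 1 of WT 40 Gy (adjusted p 0.0983) or either OF array (0.0746 and 0.177). The second was lost without replicate 2 of WT 10 Gy (-0.57, adjusted p 0.186) or replicate 1 of HBx,src,p53 10 Gy (adjusted p 0.0517). The 2 genes lie side by side in the RefSeq annotation and do not overlap there.

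The other light chains of the heavy chains did not pass in any comparison. slc7a5, the carrier of large neutral amino acids that is known from tumours and growing cells, stayed between 2.44 and 3.59 on all arrays, close to the array median. slc7a8a gave 2.26 to 2.84 in the 40 Gy batch and 3.97 to 4.79 in the 10 Gy batch. Dose and transgenic line change together with the batch, so that difference was not tested. slc7a8b, slc7a7 and slc7a9, the partner of slc3a1, ranged from 2.82 to 5.28, from 3.11 to 5.03 and from 2.02 to 4.59.

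slc7a2, which brings arginine, lysine and ornithine into the cell without a heavy chain, was higher with OF in both 10 Gy comparisons. It gave 7.50 and 8.06 in WT 10 Gy and 9.98 and 9.74 in WT OF + 10 Gy. The HBx,src,p53 arrays gave 7.90, 7.74 and 7.68 with R and 9.93, 9.33, 9.29, 9.77 and 9.24 with OF + R. All 7 OF arrays were above all 5 R arrays. The difference was 2.08 in WT (SE 0.40, 4.24-fold, adjusted p 0.0029) and 1.74 in HBx,src,p53 fish (SE 0.29, 3.33-fold, adjusted p 0.0034), and the effects differed by -0.35 (SE 0.50, adjusted p 0.879). The WT call was lost without replicate 1 of WT 10 Gy (1.80, adjusted p 0.0524). That in HBx,src,p53 fish was 1.51 without both arrays with low vtg2 (adjusted p 0.0319). In the 40 Gy batch slc7a2 gave 6.95 and 7.37 in WT R, 7.23 and 7.60 in WT OF + R, 8.23, 7.11 and 6.45 in HBx,src R, and 8.18, 8.39, 7.75 and 8.25 in HBx,src OF + R, with differences of 0.26 in WT (adjusted p 0.804) and 0.88 in HBx,src fish (SE 0.31, adjusted p 0.201).

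The WT 10 Gy comparison has a limit that holds for each member called in it. The R arrays carried ovary and yolk signal and the OF arrays did not, with the oocyte gene dazl at 8.26 and 7.71 against 1.74 and 1.50, and 10 of 11 ovary markers and 5 of 5 vitellogenin genes were lower with OF. The mean of 5 erythrocyte markers was 4.88 and 5.36 in R and 7.17 and 7.23 in OF arrays, with 4 of 5 called higher. The mean of 9 pancreas markers was 7.62 and 7.44 in R and 5.96 and 4.69 in OF arrays (0 of 9 called), and that of 15 hepatocyte markers ran from 11.93 to 12.19 in R and from 12.49 to 12.51 in OF arrays (0 of 15 called). OF and these differences cannot be told apart in 2 against 2 arrays. The same WT R arrays are the reference for HBx,src,p53 R, where 10 of 11 ovary markers were also lower, and the part of ovary RNA in those member differences was not tested.

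In the SLC38 family slc38a3a had the widest range of any named member. This carrier moves glutamine, asparagine and histidine with sodium and is known from hepatocytes. It gave 2.23 and 2.06 in WT 10 Gy, below the array medians, and 8.93 and 9.26 in WT OF + 10 Gy, a difference of 6.95 (SE 1.70, adjusted p 0.0206), or at least 6.56 against the median of the R arrays. The call was lost when any 1 of the 4 arrays was left out, with differences of 6.79 to 7.11 and adjusted p from 0.094 to 0.113. In HBx,src,p53 fish it gave 3.04, 2.02 and 2.62 with R and 9.95, 3.98, 2.50, 9.20 and 5.51 with OF + R. The OF arrays thus covered almost the whole range, and the difference of 3.67 (SE 1.24) was not called (adjusted p 0.132).

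The high slc38a3a arrays were those with little vitellogenin. In the 40 Gy batch it gave 9.81 and 10.25 in WT R, 8.05 and 7.71 in WT OF + R, 4.33, 6.50 and 6.79 in HBx,src R, and 5.00, 6.17, 6.93 and 7.64 in HBx,src OF + R. Over all 23 arrays, the 8 with a vtg2 signal of 6.51 or less had slc38a3a at 7.71 or more, and the 15 with high vtg2 had it at 7.64 or less. Both genes differ between the same groups of arrays, so this is a description, and the part of whatever divides the arrays by vitellogenin in the slc38a3a difference was not tested.

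**Figure D4:**
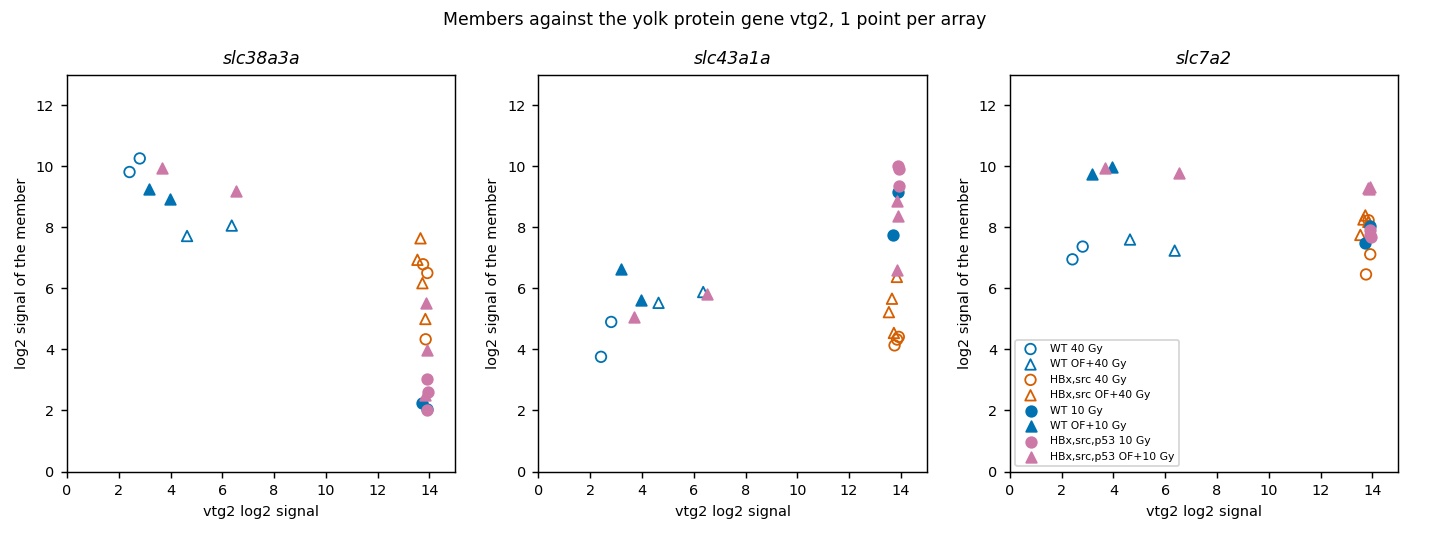
Log2 signal of slc38a3a, slc43a1a and slc7a2 (vertical axes, 1 panel each) against that of the yolk protein gene vtg2 (horizontal axes), 1 point per array. Open symbols are the 40 Gy and filled symbols the 10 Gy batch, circles R and triangles OF + R. slc38a3a is at 7.71 or more in the 8 arrays with low vtg2, and in the 10 Gy batch the low end of the vtg2 axis holds OF + R arrays alone, since all 5 R arrays have high vtg2.

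slc38a4 was higher with OF in HBx,src,p53 fish. It gave 10.42, 10.60 and 10.48 with R and 12.09, 11.12, 11.65, 12.45 and 11.78 with OF + R, with no overlap, a difference of 1.32 (SE 0.24, 2.49-fold, adjusted p 0.0050). Without both arrays with low vtg2 it was 1.02 (adjusted p 0.0305). The mean of 15 hepatocyte markers also separated these groups, at 11.50 to 11.58 with R and 12.10 to 12.45 with OF + R, with 4 of 15 called higher and 0 lower, and the part of this shift in the member changes was not tested. In WT fish with 10 Gy, 10.80 and 10.90 stood against 11.86 and 11.43, and the difference of 0.80 was not called (adjusted p 0.209). In the 40 Gy batch slc38a4 was between 9.55 and 10.59 and changed by -0.14 in WT and 0.34 in HBx,src fish, neither called.

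The remaining SLC38 calls were small. slc38a5b, a carrier of glutamine, glycine and related amino acids, gave 4.37, 5.35 and 4.89 in HBx,src,p53 R and 6.13, 6.04, 6.10, 6.12 and 5.41 in OF + R, a difference of 1.09 (SE 0.27, adjusted p 0.0305). That call was lost on leaving out replicate 1 or 3 of the R group or any of replicates 1 to 4 of the OF group, with differences of 0.84 to 1.1 and adjusted p from 0.0517 to 0.179, and without both arrays with low vtg2 (0.98, adjusted p 0.147). Its other probe sets changed by 0.85 (adjusted p 0.0278) and, below the array median on every array, by 0.11. slc38a10 was higher in HBx,src,p53 R than in WT R by 0.82 (SE 0.22, adjusted p 0.0277), which was lost without either WT array or replicate 2 of HBx,src,p53 (adjusted p 0.272, 0.0552 and 0.11), and its dimmer probe set changed by 0.11 (adjusted p 0.917). The dimmer probe set of slc38a10 was above the array median on only 5 of 23 arrays. slc38a2 was not called, with changes of -0.32, 0.08, 1.87 and 1.26 with OF in WT 40 Gy, HBx,src, WT 10 Gy and HBx,src,p53 fish (adjusted p 0.227 and above).

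The SLC43 family, carriers of leucine and other large neutral amino acids, gave 3 of the 8 calls in HBx,src,p53 fish with OF, in both directions. Of its 6 members 2 were higher and 1 lower, beside 2.51% and 3.29% of all genes. slc43a1b gave 6.42, 6.38 and 4.73 with R and 9.28, 7.92, 8.51, 9.19 and 8.33 with OF + R, a difference of 2.80 (SE 0.57, 6.99-fold, adjusted p 0.0117). Its paralogue slc43a1a gave 10.00, 9.90 and 9.36 with R and 5.06, 8.36, 6.61, 5.80 and 8.86 with OF + R, lower by 2.81 on the log2 scale (SE 0.68, adjusted p 0.0294). slc43a2a gave 4.05, 4.49 and 4.72 with R and 6.55, 6.90, 6.76, 9.67 and 6.72 with OF + R, a difference of 2.90 (SE 0.71, adjusted p 0.0305). In none of the 3 did OF and R arrays overlap, and the share of all genes without overlap was not computed. slc43a2b, at 5.03 to 6.27 and 6.72 to 7.89, changed by 1.60 and was not called (adjusted p 0.103).

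These 3 SLC43 calls did not hold without both HBx,src,p53 OF arrays with low vtg2, where slc43a1b changed by 2.41 (adjusted p 0.0816), slc43a1a by -1.81 (0.139) and slc43a2a by 2.38 (0.0829). The slc43a1b call was also lost without replicate 3 of the R group (2.25, adjusted p 0.0804). That of slc43a2a was lost without any 1 of the 3 R arrays (2.72 to 3.05, adjusted p from 0.0718 to 0.125). That of slc43a1a was lost without any 1 of the R arrays or of replicates 1, 3 and 4 of the OF group (-2.34 to -3.01, adjusted p from 0.0569 to 0.114). A second probe set of slc43a1a fell by 2.58 (adjusted p 0.0334). The other probe sets of slc43a2a changed by 2.11 and 2.16 and were not called (adjusted p 0.068 and 0.0774). The part of vitellogenin status in these changes was not tested.

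slc43a1b also separated HBx,src from WT fish in the 40 Gy batch. It gave 2.68 and 3.67 in WT R, 3.89 and 5.22 in WT OF + R, 7.80, 6.19 and 5.34 in HBx,src R, and 8.14, 7.77, 6.42 and 8.21 in HBx,src OF + R. Every HBx,src array was above every WT array, by 3.27 with R (SE 0.72, 9.66-fold, adjusted p 0.0256) and by 3.08 with OF + R (SE 0.68, adjusted p 0.0380). The first call was lost without replicate 1 of WT 40 Gy (2.78, adjusted p 0.145) or replicate 1 or 2 of HBx,src 40 Gy (2.59 and 3.40, adjusted p 0.0918 and 0.0559). The second was lost without either WT array (2.41 and 3.74, adjusted p 0.333 and 0.0554) or replicate 1, 2 or 4 of HBx,src OF + R (2.89 to 3.03, adjusted p from 0.0846 to 0.0984). The 2 groups also differ in vitellogenin, with 3 of 5 genes called higher in HBx,src R, and its part was not tested. In WT 10 Gy slc43a1b gave 7.84 and 6.89 and in WT OF + 10 Gy 8.72 and 7.95, a difference of 0.97 that was not called (adjusted p 0.635).

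slc43a3a, whose mammalian counterpart moves purine bases rather than amino acids, was higher with OF in WT 10 Gy fish. It gave 3.43 and 3.85 with R and 5.01 and 5.66 with OF + R, a difference of 1.70 (SE 0.29, 3.24-fold, adjusted p 0.0011), and in HBx,src,p53 fish 4.08, 3.69 and 3.71 against 4.33, 3.56, 3.62, 4.17 and 3.78, a difference of 0.06. The OF effects differed by -1.63 (SE 0.36, adjusted p 0.0132), and HBx,src,p53 OF + R lay 1.44 below WT OF + R (SE 0.25, adjusted p 0.0077). The difference between the effects was lost without replicate 1 of WT 10 Gy (-1.42, adjusted p 0.0933) or replicate 2 of WT OF + 10 Gy (-1.30, adjusted p 0.113), and the comparison of the OF groups without the latter (-1.11, adjusted p 0.15). The mean of 5 erythrocyte markers was 7.17 and 7.23 in WT OF + 10 Gy and 5.14 to 6.47 in HBx,src,p53 OF + 10 Gy. Both WT OF + 10 Gy arrays had low vtg2. In HBx,src,p53 OF + 10 Gy, replicates 1 and 4 had low vtg2, and they gave the highest slc43a3a of that group. The part of these differences between arrays in the slc43a3a results was not tested. All 11 arrays of the 40 Gy batch gave 2.18 to 3.10.

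In the SLC1 family slc1a4, an exchanger of alanine, serine and cysteine, had the smallest adjusted p of any member. It gave 5.13, 6.28 and 6.02 in HBx,src,p53 10 Gy, against 2.96 and 2.94 in WT 10 Gy, 2.76 and 2.57 in WT OF + 10 Gy, and 3.03, 2.96, 2.95, 2.78 and 3.28 in HBx,src,p53 OF + 10 Gy. In the 40 Gy batch it gave 2.1 and 1.97 in WT R, 1.88 and 2.02 in WT OF + R, 2.1, 2.02 and 2.06 in HBx,src R, and 1.90, 1.87, 2.2 and 1.95 in HBx,src OF + R. The 3 HBx,src,p53 R arrays stood alone, and all other arrays were within about a log2 unit of their array median. HBx,src,p53 R was higher than WT R by 2.86 (SE 0.24, 7.27-fold, adjusted p 1.4e-07), and with OF it was lower by 2.81 on the log2 scale (SE 0.19, adjusted p 3.1e-07). The OF effect in WT fish was -0.29 (adjusted p 0.687), and the effects differed by -2.52 (SE 0.32, adjusted p 5.6e-05). Without both arrays with low vtg2 the fall in HBx,src,p53 fish was -2.75 (adjusted p 1.34e-05). The mean signal of 9 pancreas markers in HBx,src,p53 fish was 7.58 to 9.65 with R and 5.80 to 9.01 with OF + R, and that of 7 myeloid markers 3.90 to 4.65 and 3.43 to 4.48. The kidney list gave 3.06 to 3.38 and 3.56 to 3.70 and the biliary list 7.56 to 7.82 and 7.85 to 8.36, both lower in all R arrays, as the hepatocyte list was. The part of such cells in the slc1a4 difference was not tested.

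slc1a5, a glutamine exchanger, ran the same way in HBx,src,p53 fish with smaller differences. It gave 9.29, 9.06 and 9.25 with R and 6.50, 7.77, 8.03, 7.65 and 8.61 with OF + R, without overlap, and the difference of -1.49 (SE 0.44) missed the threshold (adjusted p 0.0721), as did that from WT R (1.47, adjusted p 0.136). slc1a3a, a glutamate carrier, gave the single call with OF in HBx,src fish. It was at 5.83, 5.78 and 6.36 with R and at 7.08, 7.99, 6.95 and 7.73 with OF + R, a difference of 1.45 (SE 0.25, 2.73-fold, adjusted p 0.0081) that held on leaving out any 1 array. In HBx,src fish the mean of 15 hepatocyte markers was 11.55 to 11.66 with R and 11.69 to 12.07 with OF + R (0 of 15 called). That of 5 erythrocyte markers was 4.20 to 4.48 and 4.59 to 5.05 (0 of 5 called). That of 7 myeloid markers was 3.02 to 3.21 and 3.14 to 4.32 (0 of 7 called). The part of such shifts in the slc1a3a change was not tested. The changes of slc1a3a in WT 40 Gy, WT 10 Gy and HBx,src,p53 fish were 0.97, 0.32 and 0.77, and none was called. slc1a1, another glutamate carrier, was lower in HBx,src,p53 OF + R than in WT OF + R by 1.67 on the log2 scale (SE 0.34, adjusted p 0.0242). The HBx,src,p53 arrays were below their medians, so the difference is at least 0.84 in size, and without replicate 1 of WT OF + 10 Gy it was -0.94 (adjusted p 0.494).

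Of the 25 SLC6 members, slc6a16b, a carrier of unknown substrate, was called most often. It gave 5.10 and 5.30 in WT 40 Gy, 6.50 and 7.40 in WT OF + 40 Gy, 6.43, 6.90 and 6.54 in HBx,src R, and 7.60, 7.13, 7.69 and 7.02 in HBx,src OF + R. In the 10 Gy batch it gave 7.41 and 7.22 in WT R, 7.14 and 7.27 in WT OF + R, 9.28, 9.55 and 9.02 in HBx,src,p53 R, and 6.90, 8.15, 7.67, 6.49 and 8.01 in HBx,src,p53 OF + R. The WT R arrays were the lowest of the 40 Gy batch and the HBx,src,p53 R arrays the highest of the 10 Gy batch. With OF it was higher by 1.75 in WT 40 Gy (SE 0.44, adjusted p 0.0389) and lower in HBx,src,p53 fish by 1.84 on the log2 scale (SE 0.32, adjusted p 0.0043), and HBx,src,p53 R exceeded WT R by 1.97 (SE 0.40, adjusted p 0.0035). The WT 40 Gy call was lost without either R array (1.65 and 1.85, adjusted p 0.133 and 0.0649) or replicate 2 of OF + R (1.30, adjusted p 0.369). The OF effects of HBx,src,p53 and WT fish with 10 Gy differed by -1.73, short of the threshold (adjusted p 0.106).

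slc6a8, the creatine carrier, gave 6.48, 7.04 and 7.72 in HBx,src,p53 R, 4.19 and 3.48 in WT R, and 4.54, 4.97, 5.22, 4.32 and 6.21 in HBx,src,p53 OF + R. It was 3.24 higher in HBx,src,p53 R than in WT R (SE 0.79, 9.47-fold, adjusted p 0.0145), a call lost without either WT array (3.60 and 2.89, adjusted p 0.0546 and 0.14) or replicate 3 of HBx,src,p53 R (2.92, adjusted p 0.0597). The difference with OF in HBx,src,p53 fish, -2.03, missed the threshold (adjusted p 0.0959). slc6a22.2 was higher with OF in WT 40 Gy by 1.83 (SE 0.44, adjusted p 0.0316), with 6.01 and 6.66 against 7.57 and 8.76, and lost its call without replicate 1 of R (1.50, adjusted p 0.163) or replicate 2 of OF + R (1.23, adjusted p 0.367). slc6a14, a carrier of neutral and cationic amino acids, was higher with OF in WT 10 Gy by 2.34 (SE 0.66, adjusted p 0.0486), with 3.19 and 3.54 against 6.55 and 4.86. Its call was lost without either R array or replicate 1 of OF + R (1.49 to 2.51, adjusted p from 0.13 to 0.43).

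slc6a13, which carries GABA and taurine and is known from the liver, ranged from 3.84 to 10.35. It was lowest in 3 of the 4 WT arrays of the 40 Gy batch (3.84, 5.93 and 5.05), the remaining WT OF array giving 9.82, and no comparison called it. The taurine carrier slc6a6a stayed between 1.12 and 2.39, around or below the array median.

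In WT fish with 40 Gy, where 5 members were higher with OF, the mean of 7 myeloid markers was 2.66 and 2.69 in R and 3.51 and 4.27 in OF arrays (0 of 7 called), and that of 4 biliary markers 7.21 and 7.88 against 8.35 and 8.78 (1 of 4 called higher). The mean of 9 pancreas markers was 4.67 and 6.44 in R and 3.82 and 4.36 in OF arrays (0 of 9 called). That of 5 erythrocyte markers was 4.89 and 5.19 against 4.66 and 4.38 (1 of 5 called lower, 0 higher). That of 5 vitellogenin genes was 3.91 and 3.13 against 4.74 and 5.12 (0 of 5 called). The part of these marker differences in the member changes was not tested. Centring each array on its median moved the median change of all probe sets in this comparison by 0.15, from -0.08 to 0.07, and all 5 members remained called.

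The carriers linked to sensing, slc38a9 and slc36a1, both of the lysosome, were not called. slc38a9 ranged from 3.22 to 9.47 and changed with OF by 1.54, 0.66, -0.26 and 1.23 in WT 40 Gy, HBx,src, WT 10 Gy and HBx,src,p53 fish. slc36a1 came close in WT 40 Gy, at 3.13 and 3.78 with R and 4.88 and 5.13 with OF + R (1.55, SE 0.43, adjusted p 0.0575).

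A list of 32 genes of amino acid sensing and the ATF4 response, all measured, was read beside the carriers. In HBx,src,p53 fish with OF, 0 of 32 were higher and 3 lower, beside 2.51% and 3.29% of all genes. The median change of the list was -0.24 against 0.00 over all genes. atf4a itself gave 9.08, 9.34 and 8.77 with R and 7.44, 7.79, 7.17, 7.81 and 8.22 with OF + R (-1.37, SE 0.24, adjusted p 0.0046). asns, the asparagine synthetase and a known ATF4 target, gave 8.97, 8.99 and 8.93 with R and 7.42, 6.86, 7.06, 7.22 and 7.28 with OF + R (-1.79, SE 0.24, adjusted p 0.00064), and was 2.82 above WT R (adjusted p 4.0e-06). sesn2, a leucine sensor, fell by 2.50 (SE 0.41, adjusted p 0.0030). Other genes of the list, ddit3 (-0.34), chac1 (-0.47), cebpg (-0.25) and trib3 (-1.41), were not called (adjusted p 0.216 and above). The R arrays of HBx,src,p53 fish were the highest of the batch for atf4a and asns. They were also the highest for slc1a4, slc3a2b, slc6a8, slc1a5, slc43a1a and slc6a16b, and the share of all genes highest there was not computed. Of these members slc1a4, slc43a1a and slc6a16b were called lower with OF. In the same comparison slc38a2 changed the other way, by 1.26 (adjusted p 0.288), and slc7a5 changed by -0.43 (adjusted p 0.232), neither called. The part of ATF4 in the member changes was not tested.

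**Figure D5:**
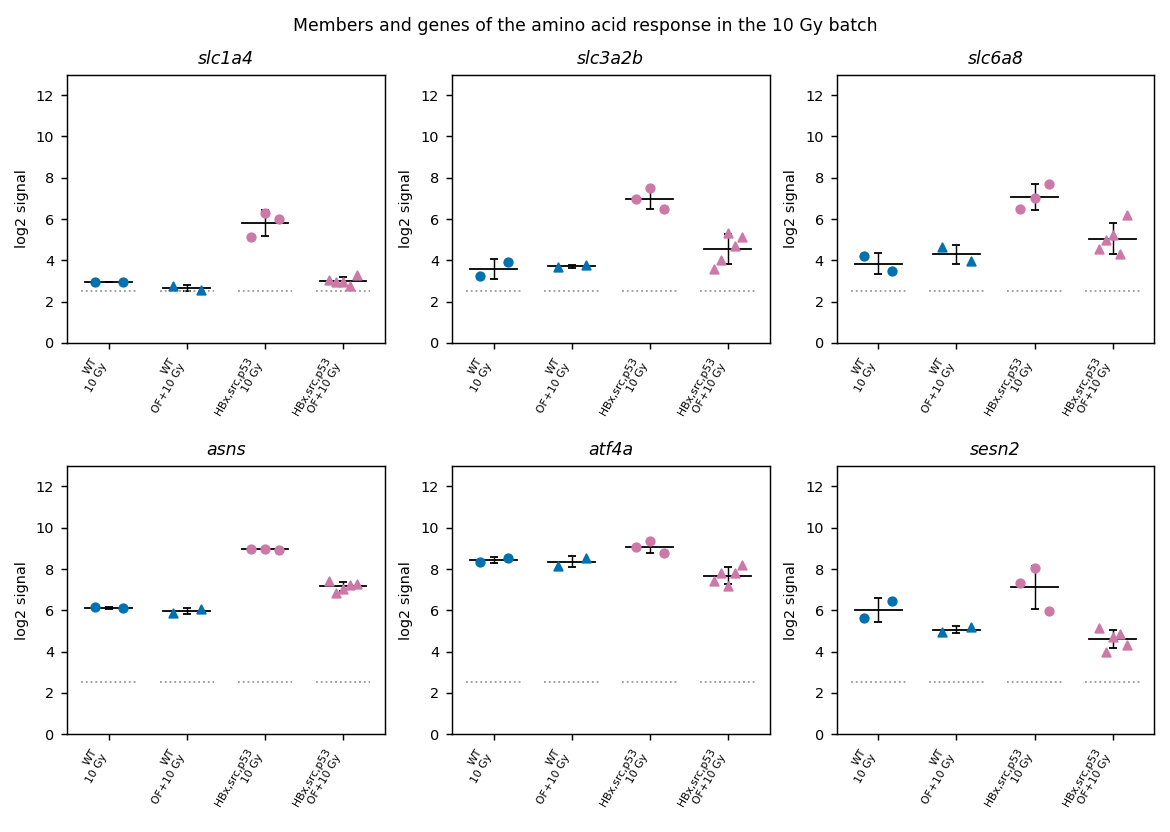
Log2 signals in the 10 Gy batch of slc1a4, slc3a2b and slc6a8 (members) and of asns, atf4a and sesn2 (amino acid response), 1 point per array, with mean ± SD and the mean array median (dotted). asns lies between 8.93 and 8.99 in the 3 HBx,src,p53 R arrays and at 7.42 or less in the 5 OF + R arrays.

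In the other comparisons the list moved less or otherwise. With OF, 3 of 32 were higher in WT 40 Gy (sesn3 by 2.16, depdc5 by 1.04 and lamtor5 by 1.74), 0 in HBx,src and 1 in WT 10 Gy fish (atf5b by 1.91), and 0 were lower in each, while 10, 6 and 5 of the list had an unadjusted p under 0.05 in limma. Of all genes, 4.05%, 2.1% and 2.63% were higher in these comparisons and 0.757%, 0.222% and 6.53% lower. These shares and those below are at an adjusted p under 0.05. None was computed at an unadjusted p, so the counts at an unadjusted p have no background. In HBx,src,p53 against WT, asns was the only gene of the list called with 10 Gy, and 0 of 32 were called with OF + 10 Gy (6 at an unadjusted p under 0.05, limma). Of all genes, 5.33% were higher and 8.4% lower with 10 Gy, and 0.383% and 0.677% with OF + 10 Gy. In HBx,src against WT, 0 of 32 were called with 40 Gy and 0 with OF + 40 Gy (10 and 5 at an unadjusted p under 0.05, limma). Beside these, 1.28% of all genes were higher and 1.4% lower with 40 Gy, and 0.289% and 1.1% with OF + 40 Gy. The OF effects of HBx,src,p53 and WT fish differed for 2 of 32, asns (-1.63, adjusted p 0.0327) and atf5b (-2.48, adjusted p 0.0065). These differences, the atf5b change in WT 10 Gy fish and the asns excess over WT R all use the WT 10 Gy R arrays. Those arrays had ovary signal, whose part was not tested. Of all genes, 5.02% had a higher and 1.74% a lower effect in HBx,src,p53 fish.

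Of 21 listed carriers of amino acids or peptides outside the families described, 20 were measured. With OF, 2 were higher and 1 lower in WT 40 Gy, beside 4.05% and 0.757% of all genes. In HBx,src fish 0 were called, beside 2.1% of all genes higher and 0.222% lower. In WT 10 Gy 2 were higher and 0 lower, beside 2.63% and 6.53%, and in HBx,src,p53 fish 1 and 0, beside 2.51% and 3.29%. slc16a10, which carries aromatic amino acids, was higher with OF in both 10 Gy comparisons, by 1.50 in WT (SE 0.33, adjusted p 0.0094) and by 1.83 in HBx,src,p53 fish (SE 0.24, adjusted p 0.00052), where it gave 7.39, 7.10 and 6.44 with R and 8.91, 8.67, 8.62, 8.97 and 8.85 with OF + R. The mitochondrial glutamate carrier slc25a22a was higher with OF in WT 10 Gy by 3.20 and higher in HBx,src,p53 R than in WT R by 3.65, and its OF effect differed between these lines by -3.87 (adjusted p 0.0082). These slc25a22a values and the slc16a10 change in WT all rest on the WT 10 Gy R arrays with ovary signal, whose part was not tested. In WT 40 Gy fish the lysosomal genes cln3 and ctns were higher with OF (1.45 and 1.94) and slc32a1 was lower (-0.94).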

How the data were processed

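The authors deposited 1 background-corrected and normalized log2 signal per probe set and array (ZebGene 1.1 ST), made with the Transcriptome Analysis Console. The software version, the summarisation method and the build of the annotation were not given in the sources used here, and array medians differ by batch, so whether both batches were normalized together is not known. Detection calls were not used, so a signal was read beside the median of its array. The number of arrays limits the precision.

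Of 75212 probe sets, 30358 had 1 gene symbol, 1015 several and 43839 none. The 77 members had 117 probe sets, 28 of them several each. One further probe set, shared by slc1a1 and slc1a2b, was left out, and 75 members matched RefSeq. Signals of close paralogues can mix. Levels of different genes were not tested against each other. They were set beside the array median, and ranked to choose the 8 members with the highest mean signal. The name rule read symbols in lower case, so genes whose symbol the annotation spells only in capitals were not taken. The family counts may therefore be incomplete. slc38a3b, slc6a6b and slc6a13l were not analysed here.

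Differences were tested on R 4.3.3 by limma 3.58.1 (lmFit, eBayes, 8 group means, 15 residual degrees of freedom), with Benjamini-Hochberg adjustment over all probe sets. The R packages data.table (1.17.8) and jsonlite (2.0.0) were also used, and for plots matplotlib 3.10.9 with numpy 2.4.6 and pandas 2.3.3 under python 3.11.15. The fit was tested on simulated data. The members and lists were chosen with earlier results of these data known. Named are all called members, the 8 with the highest mean signal and a list of members with a known role in liver or sensing. Alternatives were other scalings, filters, priors, weights, floors, thresholds, probe set summaries, a fit to the groups compared, a replicate block and leaving out each array. Leaving out both HBx,src,p53 OF arrays with low vtg2 was chosen after seeing the data.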

Additional observations from a re-analysis of the deposited data

Results flagged for a closer look

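Of 66 groups of 4 or 5 arrays, over 33 named members, 4 held 1 array far from the others, where chance flags about 1 in 20. In HBx,src,p53 OF + 10 Gy, slc38a5b was 5.41 in replicate 5 with the nearest array at 6.04, and slc43a2a was 9.67 in replicate 4, 1 of the arrays with low vtg2, with the nearest at 6.90. In HBx,src OF + 40 Gy, slc3a1 was 4.12 in replicate 3 with the nearest at 4.78, and slc7a7, a light chain for cationic amino acids, was 5.03 in replicate 4 with the nearest at 3.33. The OF effect differed between HBx,src,p53 and WT fish with 10 Gy for slc1a4, by -2.52 (adjusted p 5.6e-05), and for slc43a3a, by -1.63 (adjusted p 0.0132).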

How the results depend on the processing

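No call turned in direction under any alternative run. Of the 34 calls, all 34 kept their side of the threshold with each array centred on its median, 26 with quantile normalization over all arrays, 28 within each batch, 29 with array weights, 10 in fits to the groups compared alone and 16 with a replicate block. slc1a4 (3 calls), slc7a2 in HBx,src,p53 fish with OF, and slc6a16b and slc7a6 in HBx,src,p53 against WT 10 Gy were called under every alternative run.

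The number of members called, in the main analysis 5 in WT 40 Gy, 1 in HBx,src, 5 in WT 10 Gy and, for HBx,src,p53 fish, 8 with OF, 2 in HBx,src against WT in either state, 7 and 2 in HBx,src,p53 against WT with 10 Gy and OF + 10 Gy, and 0 and 2 for the differences of OF effects, moved as follows. Smaller shifts are left out, so a comparison not named under an alternative can still have lost or gained calls. Quantile normalization over all arrays gave 2 in WT 40 Gy, 1 in HBx,src against WT with OF and 1 in HBx,src,p53 against WT with OF, and within each batch 2, 1 and no change. Array weights gave 2 in WT 40 Gy and 0 in HBx,src against WT 40 Gy. Raising signals below the array median to it gave 18 in WT 40 Gy (7 higher, 11 lower) and 1 in HBx,src,p53 against WT with OF. The array medians were 2.21 and 2.19 in WT 40 Gy and 2.07 and 2.04 in WT OF + 40 Gy. A member raised to the median in both groups is thus lower with OF by construction. Keeping brighter probe sets also gave 1 in HBx,src,p53 against WT with OF, since slc1a1 was then not tested, and all 33 calls still tested were kept. The mean of all probe sets gave 9 in WT 10 Gy (7 higher, 2 lower), 14 in HBx,src,p53 fish with OF (7 higher, 7 lower) and 4 for the difference of OF effects in the 10 Gy batch. The methods' thresholds (a 2-fold change and an unadjusted p under 0.05, limma) gave 9, 5, 12 and 19 for OF and 8 and 6 in HBx,src against WT. They gave 12 and 8 in HBx,src,p53 against WT, and 7 and 10 for the differences. The share of all genes called was not computed under these alternatives, so their counts of members have no background. Fits to the groups compared gave 0, 0, 1 and 5 for OF, 0 and 1 in HBx,src against WT, 0 in HBx,src,p53 against WT with OF, and 1 for the difference at 10 Gy. Without both HBx,src,p53 OF arrays with low vtg2, an alternative chosen after seeing the data, 4 members were called in HBx,src,p53 fish with OF (2 higher, 2 lower) and 5 in HBx,src,p53 against WT with OF (1 higher, 4 lower).

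Same-numbered arrays did not deviate together (correlations from -0.10 to 0.15), so the numbers were not taken as pairs. With the replicate block 2, 0 and 4 members were called with OF in WT 40 Gy, HBx,src and HBx,src,p53 fish, 0 and 0 in HBx,src against WT, and 4 and 0 in HBx,src,p53 against WT.

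Leaving out 1 array gave 1 to 6 calls in WT 40 Gy, 1 to 2 in HBx,src, 2 to 4 in WT 10 Gy and, for HBx,src,p53 fish, 5 to 9 with OF, 0 to 2 in HBx,src against WT in either state, 3 to 6 and 1 to 2 in HBx,src,p53 against WT, and 0 to 1 and 1 to 2 for the differences. A group left with 1 array was assumed to vary like the others. Over all probe sets in WT 40 Gy with OF, 1409 were higher and 813 lower, against 2067 and 368 after centring, 939 and 1227 after quantiles were made equal on all arrays and 470 and 482 when this was done by batch. The causes of these differences were not tested.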
